A study of Mus musculus with 24 samples.

Results

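Synaptic vesicle and release machinery genes were followed in the striatum of R6/1 Huntington's disease mice and their wild-type littermates. Members were chosen by gene symbol alone: the synaptotagmins (Syt), synapsins (Syn), SV2 glycoproteins (Sv2), complexins (Cplx), syntaxins (Stx), vesicle-associated membrane proteins (Vamp), SNAP proteins (Snap), Rab3 GTPases, RIM proteins (Rims) and syntaxin-binding proteins (Stxbp). This rule found 68 of the 24340 genes in the deposited tables. Of these, 65 reached 0.1 FPKM (fragments per kilobase of transcript, scaled to the mapped reads of the library) in at least 1 group, among 17283 genes that did so in all, and 62 reached 1 FPKM.

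The R6/1 line is hemizygous for a transgene, exon 1 of human HTT holding an expanded CAG repeat, on a C57BL/6J background. All mice were male, and dosing started when they were 11 to 14 weeks old. RGFP109, an inhibitor of the histone deacetylases HDAC1 and HDAC3, was injected at 30 mg/kg, 5 times a week for 3 weeks, the other mice received its vehicle, and the striatum was taken 18 h after the last dose. The 4 groups were WT-vehicle with 5 libraries, R6/1-vehicle with 6, WT-RGFP109 with 6 and R6/1-RGFP109 with 7. The comparisons ask how the striatal transcriptome differs with the transgene and with the inhibitor. The deposited tables give 1 pooled FPKM for each group in each pair of groups, so no value below has a replicate error and no difference was tested. Read depth is unknown from these tables, and no interval for counting error can be given.

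Neurotransmitter release depends on a vesicle SNARE protein zippering with plasma membrane SNAREs into a bundle that pulls the membranes together. Synaptotagmins sense calcium and trigger that step, complexins hold and assist the partly assembled bundle, and Sec1/Munc18 proteins chaperone the syntaxins. Rab3 and RIM proteins bring vesicles to the active zone beside calcium channels, while synapsins tether the reserve vesicles. Most striatal neurons are GABAergic projection neurons, so RNA from striatal tissue reports in part on their own output synapses and those of local interneurons. The axon terminals of cortical neurons hold little of their RNA, yet markers of neocortical excitatory neurons were measured in every group. Of these, Slc17a7 was at 297 FPKM (WT) and 161 FPKM (R6/1) after vehicle, and at 278 and 201 FPKM after RGFP109. Release gene values therefore cannot be assigned to striatal neurons alone.

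Release machinery genes were lower in R6/1 striatum more often than higher, by small amounts. In R6/1-vehicle against WT-vehicle, 41 of the 65 members lay below 0 on the log2 scale (63.1%), against 52.1% of all genes at 0.1 FPKM or more. The members' median log2 difference was -0.10, where the median of all genes was -0.017. In the separate pair of groups, R6/1-RGFP109 against WT-RGFP109, 44 of 65 lay below 0 (67.7%), against 49.8% of all genes, and the members' median was -0.11. Log2 differences here are log2((FPKM + 0.05)/(FPKM + 0.05)) within the pair's own table, a scale that understates the differences of low genes.

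At 0.1 FPKM or more, large differences were no more frequent among the members than among all genes. Past a log2 difference of 0.5, which is 1.41-fold, 8 members were lower in R6/1-vehicle striatum, 12.3% of the 65 against 13.3% of all genes. No member was higher by that much, against 5.89% of all genes. With RGFP109 in both genotypes, 6 members were lower (9.23%, against 11.7% of all genes), and 2 were higher, against 5.55%. Those 2, Stx11 and Stx19, stayed under 1 FPKM in every group. At 1 FPKM or more, 8 of 62 members were lower with vehicle, against 10.8% of all genes, and 6 with RGFP109, against 9.39%. At that minimum 0 members were higher in either pair, against 4.27% and 3.86% of all genes. Cplx3, Syt2, Syt12, Cplx2 and Rab3b were lower past this limit in both comparisons, 7.69% of the members against 7.72% of all genes.

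The genotype difference of a member mostly had the same sign in both pairs, which share no mice. The sign was the same for 56 of the 65 members (86.2%), against 79.0% of all genes, with 38 below 0 in both and 18 above 0 in both. Across the 65 members the log2 differences correlated with Pearson's r of 0.81 and Spearman's rho of 0.77, given as a description because genes of 1 tissue are not independent replicates. Over all genes, r was 0.15 and rho was 0.67. A few extreme genes can set r, while rho uses ranks only. At 1 FPKM or more, rho was 0.78 over 62 members and 0.76 over 14124 genes, and r was 0.84 and 0.12. The sign was the same there for 87.1% of members and 81.7% of genes. Set out as levels, both R6/1 groups lay below both WT groups for 37 members (56.9%), against 36.6% of all genes. Both R6/1 groups lay above both WT groups for 15 members (23.1%), against 34.5%. Levels of the vehicle pair and the RGFP109 pair come from separately scaled tables, and the scale of 1 group differed by up to 1.04-fold between its 3 tables.

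**Figure D1:**
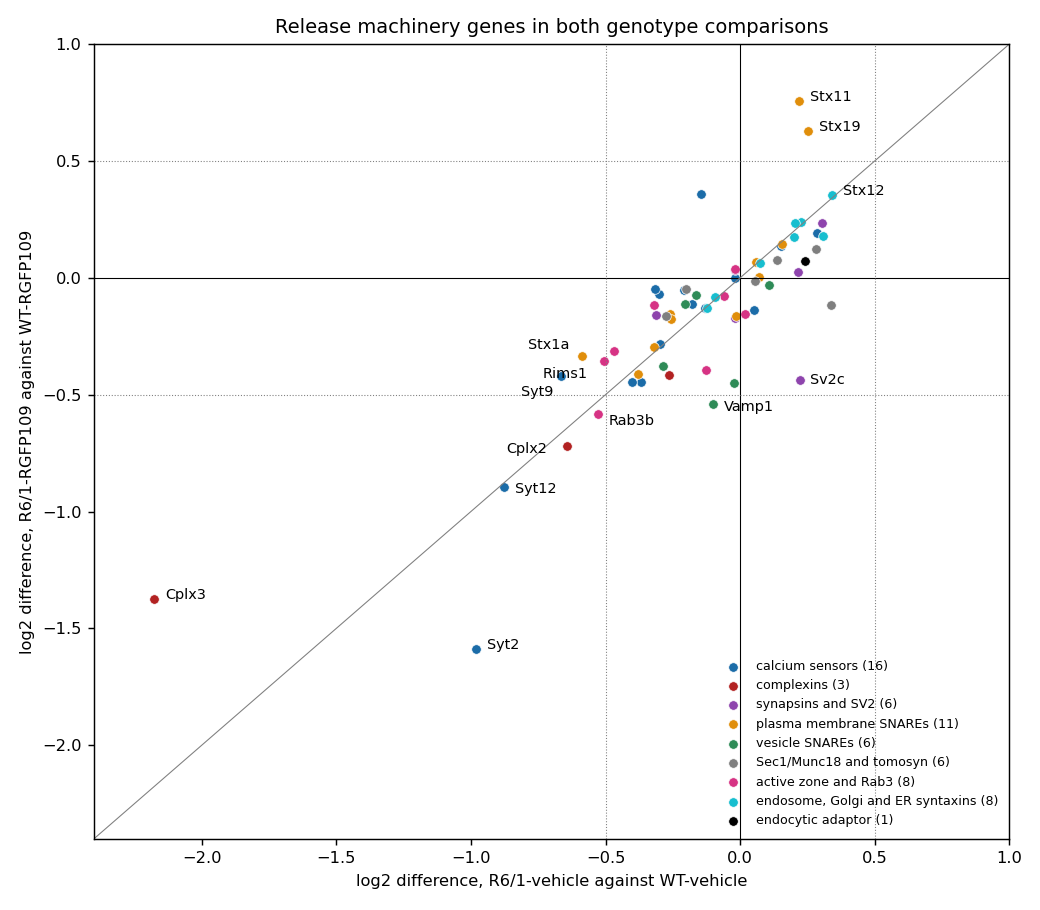
Each point is 1 of the 65 members at 0.1 FPKM or more, coloured by role, with the log2 difference of R6/1-vehicle against WT-vehicle on the x axis and of R6/1-RGFP109 against WT-RGFP109 on the y axis. The dotted lines mark a log2 difference of 0.5 in either direction and the diagonal marks equal differences: Cplx3, Syt2, Syt12, Cplx2 and Rab3b lie past the limit on the lower left, and Sv2c lies to the right of 0 and below it.

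Promoter sequence is shown for members at the ends of the range: Cplx3, Syt2 and Rab3b, lower in both pairs past the limit, and Stx12, the highest of the internal membrane syntaxins. Each is the 250 bases upstream of a RefSeq start site (GRCm38.p6), written 5′ to 3′ along the gene with matches of the motifs searched, on either strand, in capitals. The motifs were the GC box, with the letters GGGCGG, the CCAAT box, with the letters of its name, and 3 sites of inducible factors. Of the last, the cyclic AMP response element (CRE) was searched as TGACGTCA. The AP-1 site was searched as TGAGTCA, and the EGR site as GCGTGGGCG. Only letters were matched, and a match is no evidence of binding. Windows lie at chr9:57606282-57606531 on the minus strand for Cplx3, chr1:134646362-134646611 on the plus strand for Syt2 (1 of its 2 windows), chr4:108878820-108879069 on the plus strand for Rab3b and chr4:132884459-132884708 on the minus strand for Stx12.
Cplx3: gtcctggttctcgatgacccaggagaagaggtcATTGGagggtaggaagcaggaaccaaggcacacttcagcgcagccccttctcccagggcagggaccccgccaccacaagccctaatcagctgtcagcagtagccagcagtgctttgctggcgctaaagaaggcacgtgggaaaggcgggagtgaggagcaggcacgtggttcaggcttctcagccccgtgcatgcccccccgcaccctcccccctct
Syt2: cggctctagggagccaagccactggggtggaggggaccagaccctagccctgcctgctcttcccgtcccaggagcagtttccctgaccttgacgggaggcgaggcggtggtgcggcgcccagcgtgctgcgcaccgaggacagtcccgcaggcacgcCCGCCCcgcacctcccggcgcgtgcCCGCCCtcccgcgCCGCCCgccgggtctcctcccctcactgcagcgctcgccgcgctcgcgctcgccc
Rab3b: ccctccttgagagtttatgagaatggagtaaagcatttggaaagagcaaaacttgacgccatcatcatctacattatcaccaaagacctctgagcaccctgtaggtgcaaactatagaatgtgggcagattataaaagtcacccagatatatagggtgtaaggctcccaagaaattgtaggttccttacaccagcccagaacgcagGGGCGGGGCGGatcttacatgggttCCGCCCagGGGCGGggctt
Stx12: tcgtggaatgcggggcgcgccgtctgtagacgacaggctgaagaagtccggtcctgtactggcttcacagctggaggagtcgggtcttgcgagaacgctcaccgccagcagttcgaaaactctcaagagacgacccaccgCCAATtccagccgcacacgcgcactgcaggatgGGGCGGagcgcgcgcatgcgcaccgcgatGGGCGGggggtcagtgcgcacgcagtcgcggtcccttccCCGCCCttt
The Cplx3 window held 1 CCAAT box and the others held GC boxes, 4 in Rab3b (some of them overlapping), 3 in Syt2 and 3 in Stx12, the last with a CCAAT box as well. Among 65 windows matched to 51 members, 40 (61.5%) held a GC box, against 32.7% of all 32851 windows and 53.2% of windows of genes at 0.1 FPKM or more. A CCAAT box stood in 29.2% of members' windows, 33.8% of all and 34.5% of those of genes at 0.1 FPKM or more. In the same order, a CRE stood in 3.08% (2 windows), 1.55% and 2.42%, an AP-1 site in 1.54%, 4.46% and 3.37%, and an EGR site in 0%, 0.536% and 0.919%.

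Complexins, the small proteins that bind assembled SNAREs, had the lowest median log2 differences of any role in both pairs, -0.64 and -0.72. With only 3 genes measured, these medians are the values of 1 gene, Cplx2. The 3 measured genes all had both R6/1 groups below both WT groups, against 36.6% of all genes. Cplx3, a complexin best known from retinal ribbon synapses and the deepest cortical layer, stood at 7.76 FPKM in WT-vehicle against 1.68 in R6/1-vehicle, and 6.27 in WT-RGFP109 against 2.39 in R6/1-RGFP109. Its log2 differences by genotype were -2.18 and -1.37. Cplx2, the most abundant complexin here, measured 411 FPKM in WT-vehicle against 264 in R6/1-vehicle, and 417 in WT-RGFP109 against 253 in R6/1-RGFP109. Neither complexin's R6/1 levels reached the lower WT level, and for Cplx2 the genotype differences, -0.64 and -0.72, were alike. Cplx1 was lower by less, at 336 and 378 FPKM in the WT groups and 280 and 283 in the R6/1 groups, with log2 differences of -0.27 and -0.42.

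Because Cplx2 was lower by more than Cplx1, the balance between these main neuronal complexins differed by genotype. Cplx1 made up 45.0% of their summed FPKM in WT-vehicle and 47.6% in WT-RGFP109, but 51.5% in R6/1-vehicle and 52.8% in R6/1-RGFP109. FPKM is a level per transcript length, so genes can be set side by side on it. Summed complexin FPKM was 755 in WT-vehicle against 545 in R6/1-vehicle, and 802 in WT-RGFP109 against 539 in R6/1-RGFP109. No other family's summed level differed by genotype as much as that of the complexins, whose log2 differences were -0.47 and -0.57 by family sum. Cplx4, the other retinal complexin, peaked at 0.0793 FPKM, just under the 0.1 FPKM minimum, and adds next to nothing to these sums.

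**Figure D2:**
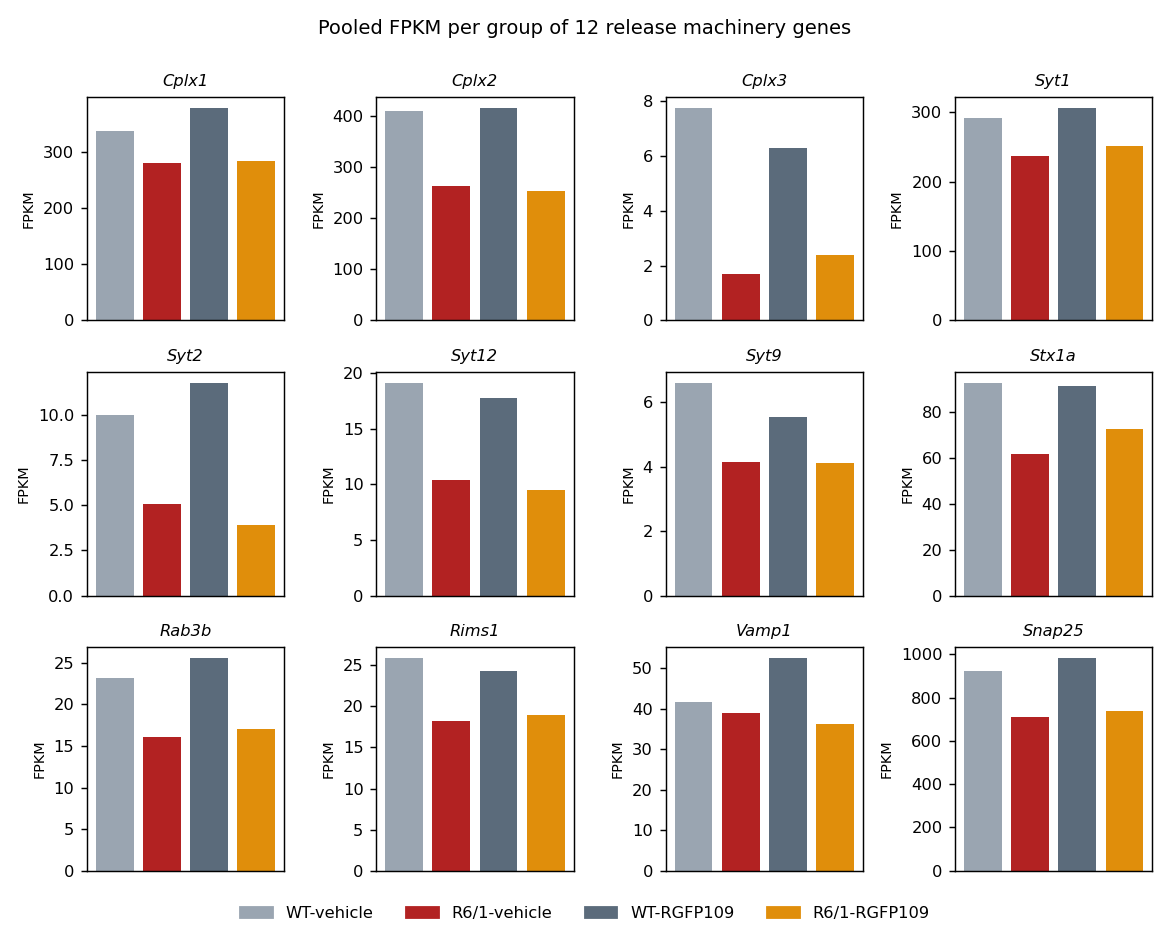
Bars give the pooled FPKM of each group on a linear axis starting at 0, 1 panel for each gene, with no error bars because the tables hold 1 value a group. In every panel both R6/1 bars are shorter than both WT bars, most clearly for Cplx3, Syt2 and Syt12.

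Neocortical excitatory neuron markers moved beside Cplx3. Their 6 genes, with Neurod2, Slc17a7, Tbr1 and Nrgn among them, summed to 1423 FPKM in WT-vehicle against 745 in R6/1-vehicle, and 1165 in WT-RGFP109 against 793 in R6/1-RGFP109. Most of each sum was Nrgn, at 1081, 556, 847 and 552 FPKM in that order. All 6 were lower past the limit in the vehicle pair, and 1, Nrgn, was lower in the RGFP109 pair (-0.62). In R6/1 mice 3 were higher past the limit with RGFP109 than with vehicle, and the median log2 difference of the 6 was 0.47. Nrgn was level in that comparison, at -0.018. Cplx3 had a log2 difference of 0.49 in that comparison, the highest of the members. None of the 6 markers was listed at 0, and their part in the Cplx3 values was not tested.

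Among the calcium sensors, 11 of 16 measured synaptotagmins had both R6/1 groups below both WT groups, and 2 had both above. Over all genes, 36.6% lay below and 34.5% above in this way, however small the difference. Syt2, a fast calcium sensor of parvalbumin interneurons and hindbrain neurons, measured 9.99 FPKM in WT-vehicle against 5.04 in R6/1-vehicle, and 11.8 in WT-RGFP109 against 3.88 in R6/1-RGFP109. Its genotype difference was -0.98 with vehicle and -1.59 with RGFP109. Syt12, a synaptotagmin without the usual calcium-binding residues, measured 19.1, 10.4, 17.7 and 9.52 FPKM in the same order of groups. The difference for Syt12 was near -0.9 in both pairs (-0.88 and -0.90), the closest repeat among the members past the limit.

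Syt9, a calcium sensor of fast release in some forebrain neurons, was at 6.60 FPKM in WT-vehicle against 4.14 in R6/1-vehicle, and 5.54 in WT-RGFP109 against 4.12 in R6/1-RGFP109. Its difference passed the limit with vehicle (-0.66) but not with RGFP109 (-0.42). Syt1, the main fast sensor of forebrain synapses and the most abundant synaptotagmin, was at 292 and 307 FPKM in the WT groups and 237 and 252 in the R6/1 groups. That amounts to log2 differences of -0.30 and -0.28. Syt7, which drives slower, asynchronous release, was also lower by a similar amount in both pairs (-0.40 and -0.45). Syt11, which does not bind calcium, lay within 0.02 of 0 in both pairs at 227 to 230 FPKM. Syt4 and Syt14 were the synaptotagmins with both R6/1 groups above, at log2 differences of 0.14 to 0.29.

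None of the remaining synaptotagmins passed the limit in a genotype comparison. Syt17, a relative found on Golgi membranes, was at 15.0 and 15.1 FPKM in the WT groups and 11.6 and 11.1 in the R6/1 groups, differences of -0.37 and -0.45. Syt13 and Syt16 were lower with vehicle (-0.30 and -0.32) and nearly level with RGFP109 (-0.07 and -0.05). Syt3 and Syt5, both calcium-binding, lay between -0.18 and -0.11 in both pairs. The groups overlapped for Syt6, Syt10 and Syt15, and Syt15 had its highest level, 0.236 FPKM, in WT-vehicle. Syt8 was under the 0.1 FPKM minimum in every group, at no more than 0.0178 FPKM.

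Syt2 was a small part of the fast sensor RNA throughout. It made up 3.31% of summed Syt1 and Syt2 FPKM in WT-vehicle and 3.69% in WT-RGFP109, and 2.08% and 1.52% in the R6/1 groups. Interneuron markers (Chat, Pvalb, Sst, Npy and Vip) were lower beside it, all 5 past the limit in both pairs, with sums of 956 FPKM in WT-vehicle against 501 in R6/1-vehicle, and 926 in WT-RGFP109 against 498 in R6/1-RGFP109. Pvalb itself had log2 differences of -0.85 and -0.95. None of these markers was listed at 0. In bulk tissue, fewer cells of a type and less RNA per cell cannot be told apart, and the part of the interneuron markers in the Syt2 values was not tested.

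Striatal projection neuron markers, with Drd1, Drd2 and Penk among them, were present in all groups and lower in R6/1 striatum, 8 of 9 past the limit in both pairs. Their sum was 3331 FPKM in WT-vehicle against 1279 in R6/1-vehicle, and 3212 in WT-RGFP109 against 1152 in R6/1-RGFP109, with median log2 differences of -1.36 and -1.39. General neuronal markers differed far less, with 0 of 5 past the limit in either pair and medians of -0.11 and -0.27. The members' medians of -0.10 and -0.11 lay nearer to the general neuronal list than to the projection neuron list, and the part of either in the members' values was not tested.

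Glial and vascular lists also lay below 0 by genotype. Medians with vehicle and with RGFP109 were -0.33 and -0.40 for 4 astrocyte genes, -0.87 and -0.34 for 4 oligodendrocyte genes, -0.28 and -0.27 for 4 microglial genes, and -0.30 and -0.22 for 3 endothelial genes. Of markers of neighbouring regions, the 4 choroid plexus genes summed to 30.0 FPKM in WT-vehicle against 14.0 in R6/1-vehicle, and 7.52 in WT-RGFP109 against 2.95 in R6/1-RGFP109. The 4 hypothalamic genes summed to 12.3 FPKM in WT-vehicle and 1.41 in R6/1-vehicle, and to 11.5 and 12.1 in the WT and R6/1 groups given RGFP109. Most of each sum was Avp, at 11.1, 0.983, 9.73 and 9.11 FPKM in that order. Hcrt was near level in all groups, and in the RGFP109 pair Oxt was higher (1.27) and Pmch lower (-0.94). The part of these lists in the members' values was not tested.

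**Figure D3:**
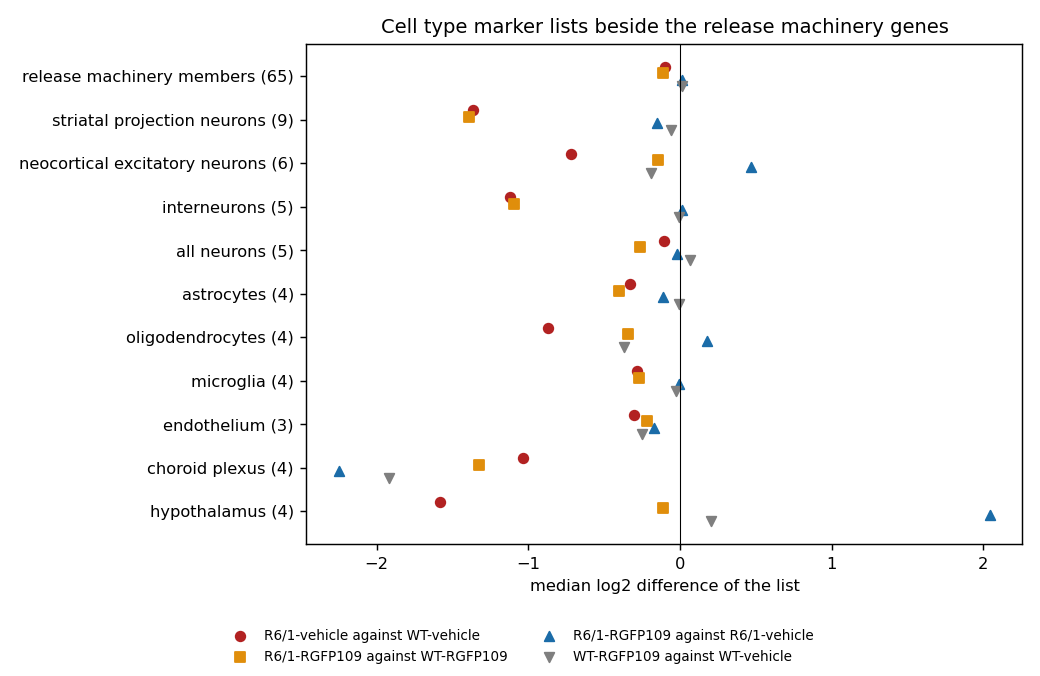
Median log2 difference (x axis) of the 65 members and of each marker list, with the number of genes in brackets and 1 marker shape for each comparison. The members' medians sit close to 0 in all 4 comparisons, while projection neuron and interneuron lists sit below -1 in both genotype comparisons.

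Plasma membrane SNAREs split by gene. Stx1a, which pairs with SNAP-25 at the presynaptic membrane, was at 92.8 FPKM in WT-vehicle against 61.7 in R6/1-vehicle, and 91.5 in WT-RGFP109 against 72.5 in R6/1-RGFP109. Its genotype difference was -0.59 with vehicle and -0.34 with RGFP109. Its R6/1 levels were below both WT levels in each pair.

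Snap25, the most abundant of the SNAP genes, was lower in both R6/1 groups (710 and 739 FPKM) than in both WT groups (923 and 983 FPKM). Its log2 differences were -0.38 and -0.41, short of the limit in both. Snap47, a relative found on internal membranes as well, was instead higher in both R6/1 groups, by 0.16 and 0.15. The plasma membrane syntaxins Stx2, Stx3 and Stx4a, which serve exocytosis in many cell types, had log2 differences between -0.32 and -0.16. At the low end, Stx11 peaked at 0.115 FPKM over all tables, just inside the minimum, and Stx19 was at 0.0374 to 0.120 FPKM, so their positive differences rest on very low levels.

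Syntaxins of the endosome, Golgi and endoplasmic reticulum went the other way from those of the plasma membrane. Of 8 genes, 6 had both R6/1 groups above both WT groups and 2, Stx6 and Stx8, had both below, with no overlap in any. Over all genes, 34.5% lay above and 36.6% below. Median log2 differences were 0.20 and 0.18, though none passed 0.5. Stx12, an endosomal syntaxin also called syntaxin-13, was at 54.7 FPKM in WT-vehicle against 69.4 in R6/1-vehicle, and 55.7 in WT-RGFP109 against 71.2 in R6/1-RGFP109. Its differences, 0.34 and 0.35, were the highest of this group in both pairs. Stx16, Stx7 and Stx17, which act in Golgi, late endosome and autophagosome fusion, had differences between 0.17 and 0.24, and Stx18 of the endoplasmic reticulum had 0.31 and 0.18. In R6/1 mice, none of the 8 differed between RGFP109 and vehicle by more than 0.05 on the log2 scale.

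**Figure D4:**
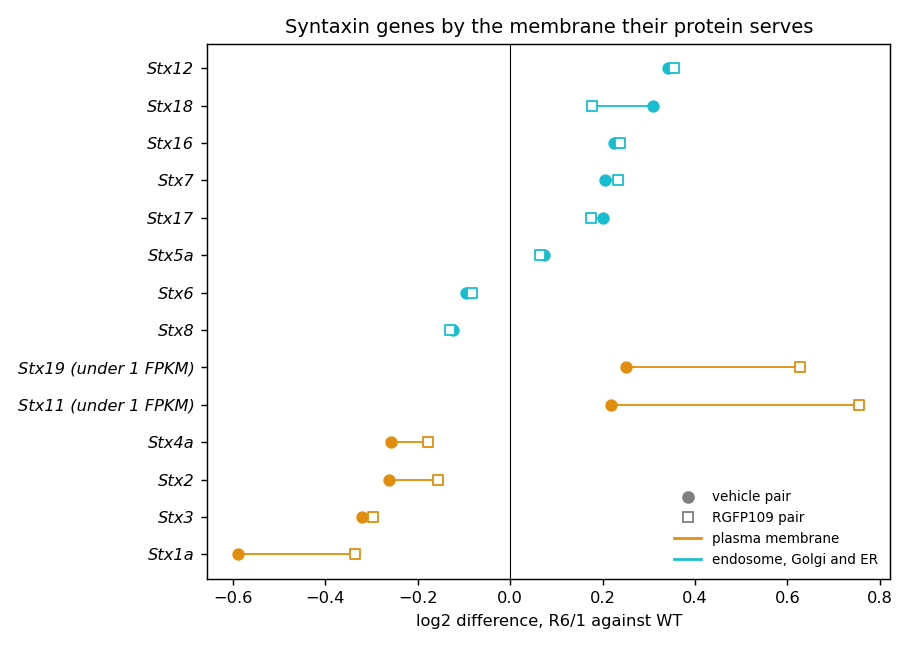
The x axis gives the log2 difference of R6/1 against WT for the syntaxin genes shown, filled circles for the vehicle pair and open squares for the RGFP109 pair, coloured by the membrane the protein serves. Among genes at 1 FPKM or more, the plasma membrane syntaxins shown lie left of 0 and 6 of 8 of the others lie right of it.

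Vesicle SNAREs leaned lower. Of 6 measured Vamp genes, 5 had both R6/1 groups below both WT groups, against 36.6% of all genes. Vamp2, the main synaptic vesicle SNARE, differed little, at 482 FPKM in WT-vehicle against 430 in R6/1-vehicle, and 484 in WT-RGFP109 against 460 in R6/1-RGFP109. Vamp1, its relative in fast-firing neurons, was at 41.7, 38.9, 52.5 and 36.1 FPKM in that order. The genotype difference of Vamp1 passed the limit with RGFP109 (-0.54) and not with vehicle (-0.10), and its WT-RGFP109 level was the highest of the 4. Vamp7 was listed at 0 in every group, on an unlocalised contig of the X chromosome.

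Vamp8, a SNARE of endosomes and secretory granules, was at 16.2 FPKM in WT-vehicle against 13.3 in R6/1-vehicle, and 13.4 in WT-RGFP109 against 10.3 in R6/1-RGFP109. It was lower with RGFP109 than with vehicle in both genotypes, by log2 differences of -0.38 in R6/1 and -0.28 in WT. The 4 choroid plexus genes (Kl, Folr1, Otx2 and Kcnj13) were also lower with RGFP109 in both, all 4 past the limit, with medians of -2.25 in R6/1 and -1.92 in WT and none listed at 0. Their part in the Vamp8 values was not tested.

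At the active zone, 6 of 8 Rab3 and RIM genes had both R6/1 groups below both WT groups, and 0 had both above. The shares over all genes were 36.6% and 34.5%. Rab3b, a vesicle GTPase enriched in some inhibitory and dopaminergic neurons, measured 23.2 FPKM in WT-vehicle against 16.1 in R6/1-vehicle, and 25.6 in WT-RGFP109 against 17.1 in R6/1-RGFP109, giving differences of -0.53 and -0.58. Rims1, a scaffold that links Rab3 to calcium channels, measured 25.9, 18.2, 24.3 and 19.0 FPKM, giving -0.51 and -0.36. Rab3a, the most abundant Rab3 of the brain, was level at 392 to 403 FPKM in all groups. Rims2 was also near level, with -0.06 and -0.08.

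Of the other active zone and Rab3 genes, Rab3d was at 2.91 and 2.70 FPKM in the WT groups and 2.09 and 2.16 in the R6/1 groups, with differences of -0.47 and -0.31. Rab3c was lower by less with vehicle (-0.13) than with RGFP109 (-0.40), its WT-RGFP109 level of 54.3 FPKM being the highest of its 4 levels. Rims4, a short RIM without the Rab3-binding part, went from -0.32 with vehicle to -0.12 with RGFP109. For Rims3, another short RIM, the groups overlapped.

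Synapsins and SV2 proteins, which belong to the vesicle itself, differed in both directions. Syn1, the most abundant synapsin, was at 160 to 165 FPKM in all 4 groups. Sv2a, the vesicle glycoprotein that binds the antiepileptic levetiracetam, was higher in both R6/1 groups (167 and 164 FPKM) than in both WT groups (136 and 140 FPKM), with log2 differences of 0.30 and 0.23. Sv2b was lower, by -0.31 and -0.16 on that scale. Sv2a therefore made up 70.8% of summed SV2 FPKM in each R6/1 group, against 62.9% in WT-vehicle and 64.0% in WT-RGFP109.

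Sv2c, the SV2 paralog concentrated in the basal ganglia, had opposite signs in the pairs. It was at 12.7 FPKM in WT-vehicle against 14.8 in R6/1-vehicle, and 15.3 in WT-RGFP109 against 11.3 in R6/1-RGFP109, so its genotype difference was 0.22 with vehicle and -0.44 with RGFP109. Between the pairs the genotype difference moved most for Cplx3 (by 0.80 towards 0), Sv2c (by -0.66) and Syt2 (by -0.61). Whether a genotype difference differed between vehicle and RGFP109 was not tested. Snap91, matched by its name, encodes the clathrin adaptor AP180 rather than a SNARE, and was higher by 0.24 and 0.07.

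Among the syntaxin-binding proteins, differences ran in both directions. Stxbp2 and Stxbp3, the Munc18 proteins of secretory cells in many tissues, had both R6/1 groups below both WT groups, by -0.28 and -0.16 for Stxbp2 and by -0.20 and -0.05 for Stxbp3. Stxbp4 and the tomosyn gene Stxbp5, which competes for SNARE assembly, had both above, with 0.28 and 0.12 for Stxbp4 and 0.14 and 0.08 for Stxbp5. Stxbp6 (amisyn) had log2 differences of 0.34 with vehicle and -0.12 with RGFP109, and its groups overlapped. Of the synapsins, Syn2 had differences of -0.02 and -0.17 and Syn3, a minor form at 7.77 to 9.04 FPKM, had 0.22 and 0.02.

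Few members passed the limit between RGFP109 and vehicle. In R6/1 mice, 0 of 65 passed a log2 difference of 0.5 between RGFP109 and vehicle, against 6.11% of all genes, and the members ranged from -0.40 (Sv2c) to 0.49 (Cplx3) around a median of 0.011. In WT mice 2 passed it, against 8.26% of all genes, and both, Stx19 and Syt15, stayed under 1 FPKM. At 1 FPKM or more, 0 of 62 members passed it in either genotype. At that minimum 1.76% of all genes were lower and 1.69% higher in R6/1 mice, and 2.49% and 1.88% in WT mice. The median size of the difference, sign ignored, was 0.051 in R6/1 mice and 0.084 in WT mice, compared with 0.22 and 0.17 by genotype. All genes gave nearly the same sizes, 0.062 and 0.088 by treatment and 0.21 and 0.19 by genotype. These comparisons reuse the same 4 groups.

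R6/1-RGFP109 levels can also be set beside WT-vehicle. Cplx2, Cplx3, Syt2, Syt12, Syt9 and Vamp8 were lower there past the limit, 6 members (9.23%) against 13.7% of all genes. Stx1a, Rims1 and Rab3b, which passed it in the vehicle pair, were short of it there, at -0.36 for Stx1a and -0.45 for the other two. Treatment differences for these in R6/1 mice were 0.22 for Stx1a and 0.05 for Rims1.

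**Figure D5:**
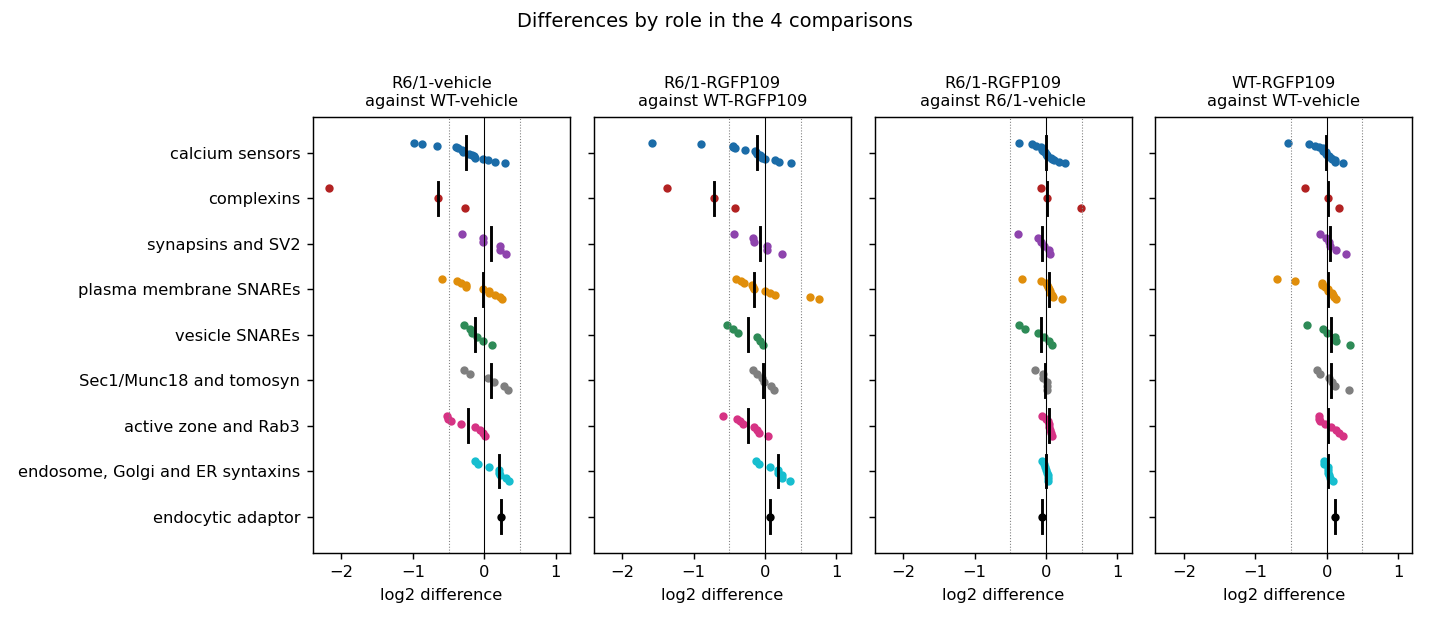
Each panel is 1 comparison, each point 1 of the 65 members on the log2 scale (x axis), in rows by role, with a black bar at the role's median and dotted lines at 0.5 in either direction. Complexins, calcium sensors, vesicle SNAREs and the active zone have medians below 0 in both genotype panels, the endosome, Golgi and ER syntaxins have medians above 0 there, and points crowd around 0 in the treatment panels.

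Other genes of the release cycle, 41 in all and outside the symbol rule, lay lower in R6/1 striatum by similar amounts. Slc17a7, the vesicular glutamate transporter of cortical neurons, is also among the neocortical markers. Their median log2 differences were -0.087 with vehicle and -0.13 with RGFP109. In the vehicle pair 6 were lower past the limit (14.6%, against 13.3% of all genes) and 1 was higher (2.44%, against 5.89%). In the RGFP109 pair 4 were lower (9.76%, against 11.7%) and 0 higher (against 5.55%). Both R6/1 groups lay below both WT groups for 21 (51.2%, against 36.6%) and above for 8 (19.5%, against 34.5%). The limit was passed downwards in both pairs by 3 (7.32%, against 7.72%), so past the limit their shares were near those of all genes. Lower in both pairs past the limit were Rph3a, the Rab3 effector rabphilin (108, 57.9, 106 and 59.8 FPKM in WT-vehicle, R6/1-vehicle, WT-RGFP109 and R6/1-RGFP109), the vesicle protein gene Synpr, and Slc18a3. Synpr measured 60.4, 41.4, 68.7 and 40.8 FPKM in that order. Slc18a3, the vesicular acetylcholine transporter of cholinergic neurons, measured 3.79, 1.96, 3.96 and 1.90 FPKM.

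In the deposited tables (mm10, spans with exons and introns), Cplx3 covers chr9:57599992-57606281, Cplx2 chr13:54371349-54383917, Syt2 chr1:134646681-134749417, Stx1a chr5:135023572-135051099, Rims1 chr1:22288422-22432843, Vamp1 chr6:125215581-125222306 and Stx12 chr4:132854064-132884458. Both ends lay within 100 bases of the RefSeq ends for 31 of the 68 members. Of the genes just listed, Cplx2, Syt2 and Rims1 were not among the 31. For 14 of the 68 members the table gives the same span to another gene, so the span is that of a group of overlapping genes. Rab3b, Syt9 and Syt12 are among the 14. Whether counting used strand is not given in the sources used here, so reads of overlapping genes may not be told apart for these.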

How the data were processed

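Striatal RNA (380 ng a library, Illumina TruSeq RNA kit) was sequenced as 51 bp single-end reads in 24 libraries. Per the labels and methods, the authors aligned reads to mm10 with STAR 2.5.0b and compared groups in pairs with Cuffdiff of the Cufflinks 2.2.1 suite on RefSeq genes. The 6 deposited tables hold 1 FPKM for each group, which the authors pooled over its libraries, so these tables do not show depth, replicate spread or any difference between the sequencing pools. Values of single libraries, which the study gives in a supplement, were not used here. The tables' own fold changes, test statistics, p-values and q-values were not used.

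Members were matched by symbol and kept at 0.1 FPKM or more in any group. The log2 difference used a pseudocount of 0.05 FPKM and a limit of 0.5 within each pair's table; levels came from the vehicle and the RGFP109 genotype tables. With 1 value a group, no test was run, and counts over all members stand beside the same counts over all genes. Counts by role of groups that do not overlap stand beside the share of all genes. Counts by marker list have no such background. Named genes were members past the limit in any comparison at 1 FPKM or more, the most abundant of each family, those at the 0.1 FPKM boundary, and other release genes past the limit in both genotype comparisons; further members illustrate their role and were picked after their values were seen. The members and lists were chosen with earlier results of these data known. Alternatives covered the pseudocount, FPKM minimum, limit, centring and route through other tables. Calculations used Python 3.11.15, pandas 2.3.3, numpy 2.4.6 and scipy 1.17.1. The log2 difference and the limit were tested on simulated data, with noise-free changes put into the WT-vehicle values. Such data check the arithmetic only and cannot show how the limit handles noise. Promoter windows came from RefSeq GRCm38.p6. Syt12 was not among them. Some named members and markers count in the totals but are not reported here.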

Additional observations from a re-analysis of the deposited data

How the results depend on the processing

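No paired analysis was possible because the deposited tables pool the libraries of a group, and for the same reason no library could be left out of them. The values of single libraries that the study gives in a supplement were not used here, so replicate spread was not examined. Of the alternatives to each member count and median, 48 values stayed close to the reported ones and 10 moved. Against 8 members past the limit in each genotype comparison, a limit of 0.3 gave 21 with vehicle and 22 with RGFP109, and a limit of 1 gave 1 and 2. In R6/1 mice given RGFP109 against vehicle, the count of 0 became 5 at a limit of 0.3 and 2 with no pseudocount. In WT mice the count of 2 became 6 at a limit of 0.3, and 0 at a limit of 1, with a pseudocount of 0.5 FPKM or with a minimum of 1 FPKM. By construction a lower limit admits more genes and the pseudocount shrinks the differences of low genes. The minimum of 1 FPKM drops Stx19 and Syt15. Counts have no direction that could reverse. The members' medians kept their sign under each alternative, but those by treatment were close to 0 (0.011 in R6/1 mice and 0.016 in WT mice). Routes through other tables reuse the same pooled groups, so the closeness of their values was largely fixed in advance. Putting both pairs of groups on 1 scale, an alternative chosen after seeing the data, left 37 members with both R6/1 groups below and 15 above.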
